A study of Rattus norvegicus with 24 samples.

Results

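Transcripts of 10 plasma proteins that the liver makes were followed through heart muscle samples of 24 rats: albumin (Alb), the fibrinogen chains (Fga, Fgb and Fgg), alpha-1-antitrypsin (Serpina1), fetuin A (Ahsg), apolipoproteins H, A1 and A2 (Apoh, Apoa1 and Apoa2) and transthyretin (Ttr). They were found by matching the accessions of the array probes to rat RefSeq transcripts of these symbols, which gave 1 probe for each of the 10 genes, of 15168 genes named in all. Hepatocytes secrete these proteins into the blood, where they carry hormones, fatty acids and lipids, form clots and hold proteases in check. In hepatocytes such genes are driven together by liver-enriched factors such as HNF1 and C/EBP proteins, and heart muscle is not known as a main source of albumin or fibrinogen. The question asked of these data was whether the transcripts rise together on single arrays.

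The 6 groups held 4 rats each, 2 males and 2 females. A sham group is set beside an injury group, IRI (ischaemia and reperfusion of the myocardium), for which the left anterior descending coronary artery was ligated. The other 4 groups had the same ligation after acupuncture for 7 days at 1 acupoint: Jiaji, Neiguan, Yanglingquan or Quchi. Total RNA of each myocardium sample was labelled with Cy3 and measured on a single-colour Agilent array; strain, age, reperfusion time and the part of the heart sampled were not given in the sources used here. Arrays were taken as separate rats from their labels, which do not state it, so the p-values speak only of the spread among these arrays.

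The 10 genes were chosen by their known liver origin, with their levels on these arrays already in view. Levels on single arrays and correlations between the genes are therefore a description with no test, and group differences rest on the same levels, so they lend that description no independent support. A level is the log2 signal relative to the 75th percentile of its array, which sits at 0, and levels of different probes were not set against each other. Of the arrays' probes, 71.2% to 88.8% were well above background, the scanner software's mark for a spot brighter than its surroundings, with the lowest shares in Yanglingquan. Within groups, pairs of arrays gave r = 0.976 to 0.992 over all genes. The 12 cardiomyocyte markers checked were well above background on all 24 arrays. No scan held arrays of more than 1 group, over 7 scans on 3 days with Quchi replicate 1 scanned alone, so scan and group cannot be told apart. In such bulk samples more cells of a type and more RNA per cell cannot be told apart either.

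Upstream sequences are shown for the albumin and fibrinogen beta genes, whose transcripts moved together most closely, and for Serpina1, whose level did not follow that of Alb. They come from RefSeq on build GRCr8 and are written 5′ to 3′ on the strand of the gene, ending before the first annotated transcript base; Alb has 186 bases here and the others 250. Capitals mark matches to GTTAAT, letters recognised by HNF1 factors, and to TTNNGCAA, a C/EBP type motif, on either strand; the matches do not overlap.
Alb, chr14:17907044-17907229, minus strand: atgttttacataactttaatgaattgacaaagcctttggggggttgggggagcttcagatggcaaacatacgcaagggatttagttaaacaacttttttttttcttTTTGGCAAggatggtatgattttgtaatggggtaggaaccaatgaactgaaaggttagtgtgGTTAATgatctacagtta
Fgb, chr2:170700876-170701125, minus strand: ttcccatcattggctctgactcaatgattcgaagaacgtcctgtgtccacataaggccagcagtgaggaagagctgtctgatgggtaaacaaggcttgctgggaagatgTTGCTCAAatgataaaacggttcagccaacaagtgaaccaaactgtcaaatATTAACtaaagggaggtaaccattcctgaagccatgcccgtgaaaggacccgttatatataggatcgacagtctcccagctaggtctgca
Serpina1, chr6:128653126-128653375, minus strand: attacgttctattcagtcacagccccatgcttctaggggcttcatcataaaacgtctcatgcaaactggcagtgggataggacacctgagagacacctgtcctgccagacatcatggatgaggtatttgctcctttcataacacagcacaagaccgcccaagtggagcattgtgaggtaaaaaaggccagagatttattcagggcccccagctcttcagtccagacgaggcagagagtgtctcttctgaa
Alb and Fgb each held 1 match to either motif, and the Serpina1 window held 0. Of the 8 genes with an upstream sequence in the RefSeq table, GTTAAT occurred in 3 (Alb, Fga and Fgb) and TTNNGCAA in 4 (Alb, Fga, Fgb and Ahsg), against 6.45% and 9.22% of all 33469 upstream sequences of 250 bases. A match describes letters in this window only.

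Albumin, the most abundant protein of plasma and a carrier of fatty acids, gave the widest range of the 10 genes. Its level was -6.82, -8.29, -8.77 and -8.73 on the sham arrays, 0 of them well above background. On the IRI arrays it stood at -4.48, -7.60, -6.26 and -8.27, and only the first was well above background. Jiaji gave -6.57, -6.94, -6.48 and -7.91, none well above background. Sham, IRI and Jiaji thus held 1 array with a measured albumin signal. In Neiguan the level was 1.47, -4.69, -3.07 and -4.02, well above background on all 4 arrays. Yanglingquan gave -7.46, -4.91, -5.90 and -5.72, with only the second well above background, and Quchi gave -0.86, -1.85, -3.66 and -7.98, with all but the last well above background. Neiguan replicate 1 was the highest array, followed by Quchi replicates 1 and 2, and all 3 came from males. Against the most that the sham arrays allow, albumin was at least 281-fold higher on Neiguan replicate 1, at least 56-fold higher on Quchi replicate 1 and at least 28.2-fold higher on Quchi replicate 2. Such a bound sets the brighter value against, per dim array, the dimmest signal well above background or the probe's own signal, whichever is higher. Another Neiguan array from a male, replicate 3, stood at least 12-fold above sham. By group mean Neiguan came first and Quchi next, and their arrays overlapped, as did those of Quchi and Yanglingquan. With 0 or 1 array well above background in each of Yanglingquan, IRI, Jiaji and sham, no order of these groups can be read.

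**Figure D1:**
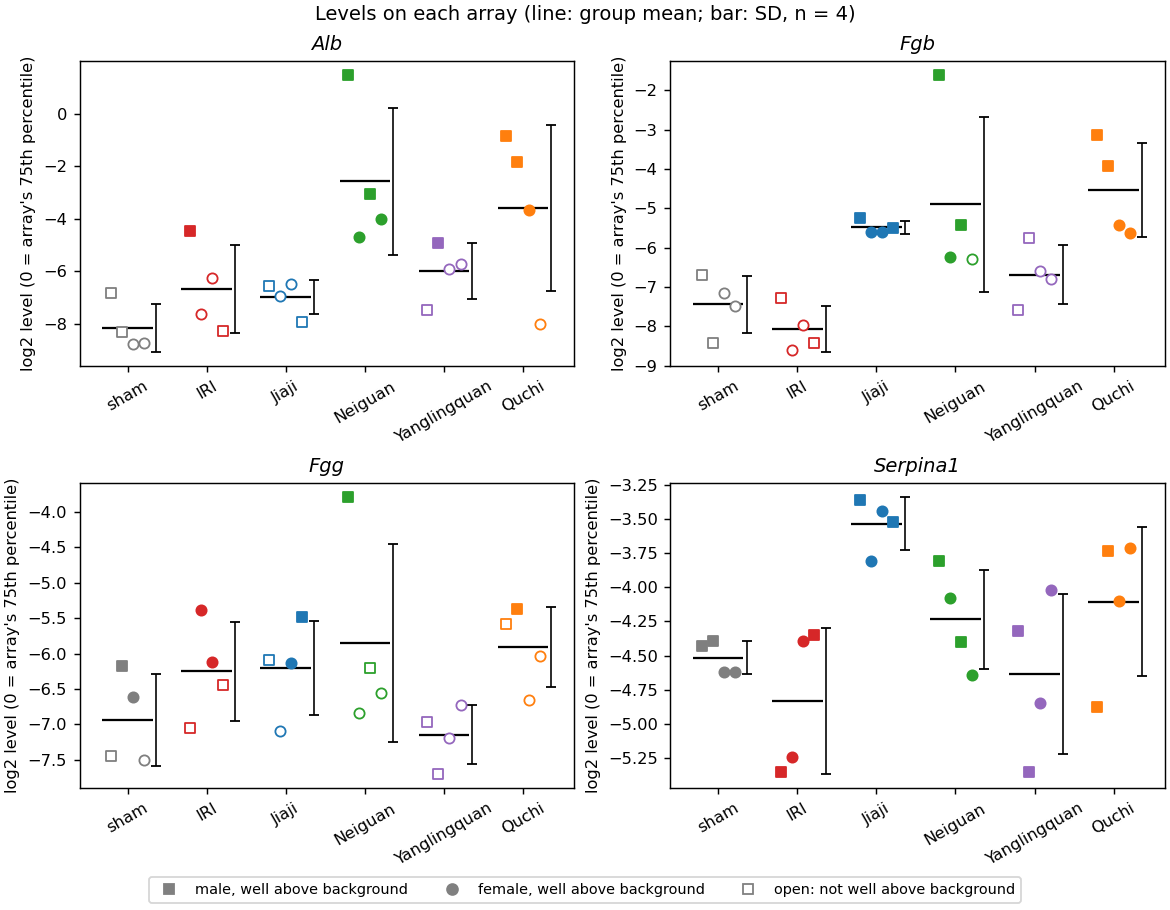
Log2 level of Alb, Fgb, Fgg and Serpina1 on each array, by group, relative to the array's 75th percentile; squares are males, circles are females, open symbols were not well above background, lines are group means and bars the SD over 4 arrays. Alb, Fgb and Fgg are highest on Neiguan replicate 1 (1.47, -1.61 and -3.79), while the highest Serpina1 levels are those of Jiaji.

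Fibrinogen is assembled in hepatocytes from alpha, beta and gamma chains encoded by Fga, Fgb and Fgg, which lie side by side in the genome, and thrombin turns it into the fibrin of clots. The beta chain transcript, Fgb, followed albumin. It was -6.70, -8.42, -7.15 and -7.49 in sham, -7.29, -8.60, -7.97 and -8.43 in IRI and -7.59, -5.76, -6.60 and -6.81 in Yanglingquan, with 0 of these 12 arrays well above background. Jiaji gave -5.25, -5.59, -5.61 and -5.50, all well above background and close together. Neiguan gave -1.61, -6.24, -5.42 and -6.30, all but the last well above background, and Quchi gave -3.14, -3.92, -5.42 and -5.63, all well above background. The highest arrays were Neiguan replicate 1 and Quchi replicates 1 and 2, in the same order as for albumin, at least 32.6-fold, 11.3-fold and 6.59-fold above the most that sham allows. By group mean Quchi, Neiguan and Jiaji came first and overlapped with one another. The Jiaji mean was at least 1.21-fold above the most that Yanglingquan allows. Since no Yanglingquan array was well above background, a gap between single arrays of these groups cannot be read.

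The gamma chain, Fgg, was well above background on 8 of 24 arrays and on all arrays of no group, so it was not tested. Its highest level was -3.79 on Neiguan replicate 1, 1.58 above the next array, while the other Neiguan arrays were at -6.84, -6.21 and -6.56, none well above background. Quchi replicate 2, the next array, stood at -5.37. With 0 to 2 arrays of each group well above background, no order of the groups can be read. The alpha chain, Fga, was well above background on 0 of 24 arrays. Its values, -9.15 to -6.68, carry no order. Fgb and Fgg thus shared Neiguan replicate 1 as their highest array, and Fga could not be read.

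Of the genes of circulating inhibitors, Serpina1 encodes the main inhibitor of neutrophil elastase in blood. Every array measured it, and it ranged from -5.35 to -3.36. Sham gave -4.43, -4.39, -4.62 and -4.62, and IRI gave -5.35, -5.24, -4.39 and -4.35. Jiaji gave -3.36, -3.81, -3.44 and -3.52, above every sham and IRI array. Neiguan gave -3.81, -4.08, -4.40 and -4.64, Yanglingquan -4.32, -5.35, -4.85 and -4.02, and Quchi -4.88, -3.73, -4.10 and -3.71. Of the 3 highest albumin arrays, Quchi replicate 2 ranked 5th of 24 for Serpina1, Neiguan replicate 1 ranked 7th and Quchi replicate 1 ranked 21st. Fetuin A, from Ahsg, inhibits calcification and was well above background on 21 arrays. It was highest on Neiguan replicate 1 at -4.46, but by only 0.02 over Jiaji replicate 3, and under quantile normalization, normexp and the authors' values its highest array was Yanglingquan replicate 1. Jiaji lay between -4.67 and -4.48, sham between -5.38 and -5.01 and IRI between -5.50 and -4.87, so Jiaji did not overlap with either. Yanglingquan ranged from -6.56 to -4.69, with 2 arrays not well above background.

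The apolipoproteins did not follow albumin. Apoh encodes a phospholipid binding protein of plasma. It was well above background on 12 arrays, was highest on Jiaji replicate 4 at -4.50 and Neiguan replicate 4 at -4.72, and stood at -5.42 on Neiguan replicate 1, the third highest. On Quchi replicates 1 and 2 it was -7.79 and -6.83, not well above background. All 4 sham arrays measured it, at -6.73 to -5.79, and 0 of the Yanglingquan arrays did. Apoa1 encodes the main protein of high-density lipoprotein. It was well above background on 4 arrays only, namely Neiguan replicate 4 at -4.82, sham replicate 2 at -5.35 and IRI replicates 2 and 3 at -6.32 and -6.13. On Neiguan replicate 1 it was -8.47 and not well above background. Apoa2, another protein of high-density lipoprotein, was well above background on 21 arrays and lay between -6.09 and -4.27. Its Neiguan arrays differed little, from -5.04 to -4.83. The highest arrays for Apoa2 were Jiaji replicate 2, Quchi replicate 2 and Jiaji replicate 1 at -4.27, -4.28 and -4.29. Under quantile normalization, median scaling and the authors' values Quchi replicate 2 came first. Yanglingquan, at -6.09 to -5.42, lay below every array of sham, Jiaji, Neiguan and Quchi, and 3 of its 4 arrays were not well above background.

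Transthyretin carries thyroid hormone and retinol-binding protein, and is also made outside the liver, above all by the choroid plexus of the brain. Ttr was bright on every array, with a level of 1.97 to 3.60 and a median of 2.97. The Yanglingquan replicate 1 spot was marked as an outlier and left out, so this group has 3 values. Sham gave 3.42, 2.67, 2.87 and 2.97, IRI 3.28, 3.34, 2.95 and 2.99, and Jiaji 1.97, 3.10, 2.67 and 3.06. Neiguan gave 2.33, 2.94, 2.69 and 3.11, Yanglingquan 2.97, 2.74 and 3.02, and Quchi 3.53, 3.60, 3.20 and 2.95. All groups overlapped with sham. Neiguan replicate 1 was 22nd of 23 arrays for Ttr, with Jiaji replicate 1 last, whereas Quchi replicates 2 and 1 were its highest arrays.

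**Figure D2:**
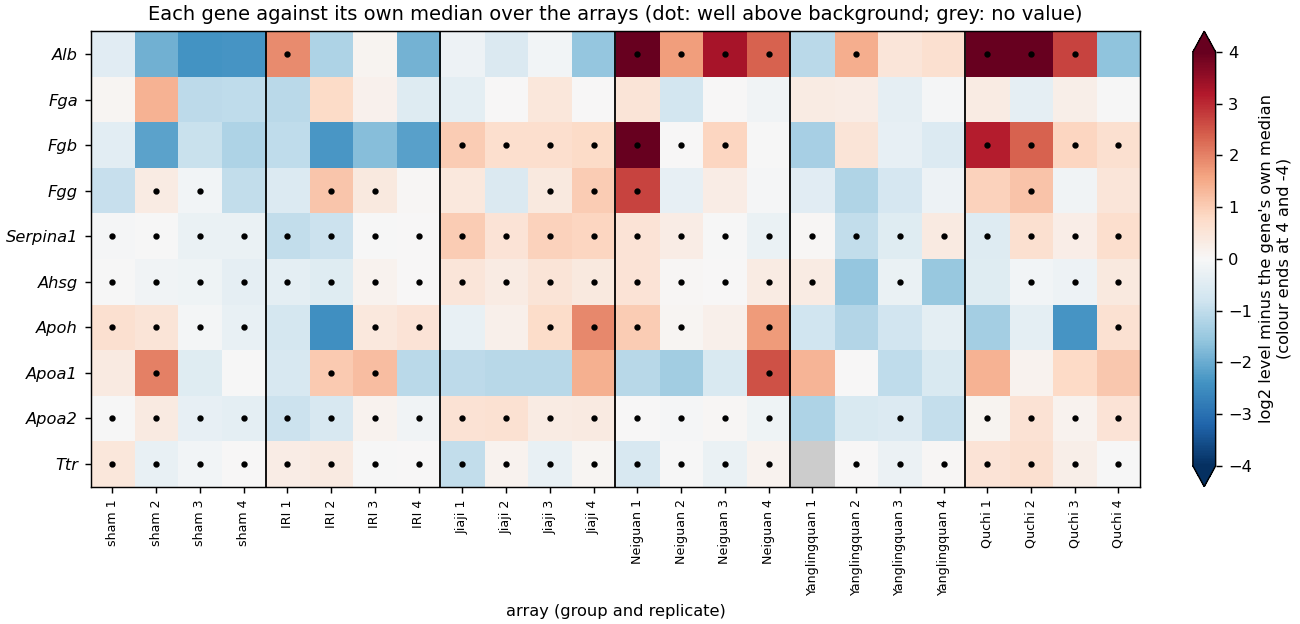
Log2 level of each of the 10 genes (rows) minus its own median over the arrays, for each array (columns, by group and replicate); colour runs from -4 to 4, dots mark values well above background and grey marks a missing value. Neiguan replicate 1 is dark for Alb and Fgb and raised for Fgg, but pale for Apoa2 (0.01) and below the median for Apoa1 and Ttr (-1.10 and -0.63).

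The 10 transcripts did not rise as 1 block on any array. Neiguan replicate 1 was the highest array for 4 of them, Alb, Fgb, Fgg and Ahsg, and among the highest 3 for 6, with Fga and Apoh added; Fga was not well above background there. Counting a gene only where it is well above background on its highest array, the share of all named genes highest on Neiguan replicate 1 was 3.52%. Alb, Fgb and Fgg kept Neiguan replicate 1 as their highest array under every scaling tried. Quchi replicate 2 was among the highest 3 for 5 genes (Alb, Fgb, Fgg, Apoa2 and Ttr) and Quchi replicate 1 for 3 (Alb, Fgb and Ttr). Jiaji replicates 1 and 4 were among the highest 3 for 3 genes each, with Serpina1 in both and Alb and Fgb in neither. These arrays were often high for other genes too. Of all named genes, 12.3% were highest and well above background on Jiaji replicate 1, the most of any array. The shares were 4.05% on Jiaji replicate 4, 5.0% on Quchi replicate 1 and 6.9% on Quchi replicate 2. No share over all genes was counted for the highest 3.

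Across arrays, Alb ran closest to Fgb, while Serpina1, Ahsg and Apoa2 ran closest to each other. Over the 45 pairs the median Pearson r across arrays was 0.10, with a range of -0.39 to 0.80, 6 pairs over 0.5 and 14 below 0. Subtracting group means left a median of 0.05. Alb and Fgb were the closest pair (r = 0.80 and rho = 0.63 over 24 arrays), and their r was 0.85 with group means subtracted and 0.59 without Neiguan replicate 1 and Quchi replicate 1. Alb and Fgg gave 0.48, and Fgb and Fgg 0.54, which fell to 0.05 and 0.15 without their 2 farthest arrays, those same arrays. Another set of closer pairs joined Serpina1 with Apoa2 (0.65) and Ahsg (0.60), and Ahsg with Apoa2 (0.56) and Apoh (0.54). With group means subtracted these were 0.34, 0.43, 0.13 and 0.37. Alb gave between -0.10 and 0.10 with Serpina1, Ahsg, Apoh, Apoa1, Apoa2 and Ttr, whereas Fgb gave 0.39 with Serpina1 and 0.42 with Apoa2 (-0.09 and 0.00 with group means subtracted). Ttr ran below 0 with Serpina1 (-0.39) and Ahsg (-0.34). The points of each correlation share arrays and their scaling, and many are not well above background for Alb, Fga, Fgb, Fgg, Apoh and Apoa1.

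**Figure D3:**
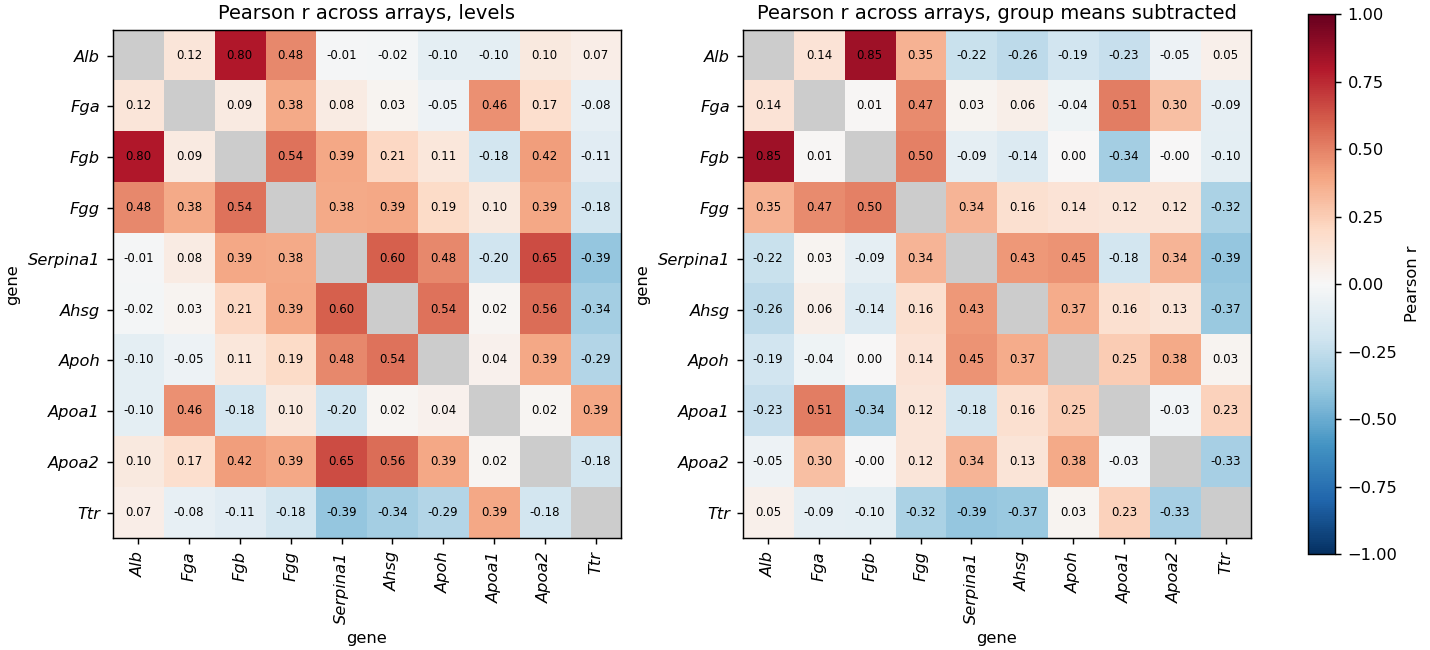
Pearson r between the levels of each pair of the 10 genes across arrays (24, or 23 with Ttr), as measured on the left and with group means subtracted on the right; colour runs from -1 to 1. The cell of Alb and Fgb is the darkest in both panels (0.80 and 0.85), and the other cells of the Alb row beyond Fgg lie near 0 on the left.

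Group differences were tested with limma over all genes. Of the 10 transcripts 7 passed the filter, which asks for a signal well above background on every array of at least 1 group; Fga, Fgg and Apoa1 did not. Alb passed through Neiguan, Fgb through Jiaji and Quchi, and Apoh through sham, so that a gene like Fgb was bound to differ between groups and counts over the 7 are given as a description. Adjusted p-values are Benjamini-Hochberg values over 12894 genes, with a gene called at 0.05.

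Injury alone moved none of these transcripts past the threshold. Between IRI and sham 0 of 7 were called by limma, and 0 had an unadjusted p under 0.05, with 5.75% of all genes called in either direction. The log2 difference of albumin was 1.50 ± 1.17 (SE; limma adjusted p = 0.575), and the arrays of both groups overlapped. Fgb gave -0.63 ± 0.69, Serpina1 -0.32 ± 0.29 and Ttr 0.16 ± 0.23 (adjusted p = 0.722, 0.66 and 0.808). The median difference of the 7 was -0.29, beside -0.03 over all genes.

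In Jiaji pretreatment, Serpina1, Ahsg and Apoa2 had their highest group means, with Apoa2 close to Quchi (-4.40 and -4.52), while Ttr had its lowest. Against IRI 3 of 7 were called higher, Fgb, Serpina1 and Apoa2, and 0 lower, with 8.39% of all genes called higher. Over all genes 1082 were higher and 232 lower, a split that turned to 740 and 1629 under median scaling, which moved the median difference of all genes to -0.23; the same 3 genes were called higher there. Serpina1 rose from -4.83 ± 0.53 (SD, n = 4) to -3.53 ± 0.20, by 1.30 ± 0.29 (SE, limma adjusted p = 0.00622), and every Jiaji array was above every IRI array. Apoa2 rose from -5.25 ± 0.46 to -4.40 ± 0.14, by 0.85 ± 0.21 (adjusted p = 0.0103), and lost its call without IRI replicate 1 (0.67, adjusted p = 0.0519) and under normexp (0.15, adjusted p = 0.165). Fgb was at least 2.11-fold higher in Jiaji, with measured means of -5.49 and -8.07 and an adjusted p of 0.0185. The Fgb call ended without IRI replicate 2 or 4 or Jiaji replicate 3 (adjusted p = 0.0508, 0.0596 and 0.0543), under quantile normalization (0.0744), with the authors' values (0.123) and under normexp, where the difference was 0.25 (0.678). Ahsg differed by 0.62 ± 0.30 without passing (adjusted p = 0.219), as did Apoh by 1.20 ± 0.63 (0.258). Albumin itself was not raised in Jiaji, at -0.32 ± 1.17 (adjusted p = 0.913). The median difference of the 7 was 0.85, beside -0.01 over all genes. Marker lists of other tissues moved in Jiaji too, with 4 of 8 kidney, 2 of 6 intestine and 2 of 6 adipocyte markers called higher and 4 of 7 red cell markers lower; their part in these differences was not tested.

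Neiguan pretreatment had the highest albumin by group mean, a rank that rested on replicate 1. Against IRI 2 of 7 were called higher, Alb and Fgb, and 0 lower, with 4.41% of all genes called higher. Alb stood at -2.58 ± 2.78 (SD, n = 4) in Neiguan and -6.65 ± 1.67 in IRI, where 1 of 4 arrays measured it, a difference of 4.07 ± 1.17 (SE, limma adjusted p = 0.0436). The arrays overlapped, since IRI replicate 1 at -4.48 was above Neiguan replicate 2 at -4.69. Without Neiguan replicate 1 the difference was 2.91, below the 3.07 of Quchi with all its arrays, and no longer called (adjusted p = 0.19). In all, 13 of the 24 single arrays ended the call when left out (adjusted p = 0.05 to 0.19), 8 of them in groups outside the comparison. Alb passed the filter only through Neiguan, and its call also ended without a filter (0.0534), without the sex term (0.0659) and under normexp (1.65, adjusted p = 0.119). Fgb was at least 3.17-fold higher, with measured means of -4.89 and -8.07 and an adjusted p of 0.00642, and was 2.18 on the log2 scale without Neiguan replicate 1 (adjusted p = 0.013). Under normexp its difference was 0.73 and not called (adjusted p = 0.161). Serpina1, at 0.60 ± 0.29, and Apoh, at 1.30 ± 0.63, did not pass the threshold (adjusted p = 0.265 and 0.256). Ttr gave -0.37 ± 0.23 (adjusted p = 0.381). The median difference of the 7 was 0.60, beside -0.05 over all genes.

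In Yanglingquan 0 of 7 were called by limma against IRI, with 12.1% of all genes called in either direction, and 1, Apoa2, had an unadjusted p under 0.05 (-0.46 ± 0.21, adjusted p = 0.157). Fgb differed by 1.38 ± 0.69 with 0 of 8 arrays well above background (adjusted p = 0.206), and Ahsg by -0.56 ± 0.30 (0.246). Albumin gave 0.66 ± 1.17 (adjusted p = 0.77). In this group 8 of 12 cardiomyocyte markers were called higher than in IRI; their part in these values was not tested.

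Quchi had the highest Fgb by group mean, and Fgb was the only 1 of the 7 called against IRI. It was at least 4.08-fold higher than in IRI, with measured means of -4.53 and -8.07 and an adjusted p of 0.00585, and 2.39% of all genes were called higher. Because Fgb passed the filter through Quchi and Jiaji, the fit without a filter is given beside it (adjusted p = 0.00913). The log2 difference was 3.21 without Quchi replicate 1 (adjusted p = 0.0127), 3.48 without replicate 2 (0.0295) and 0.68 under normexp, where the call ended (0.215). Alb stood at -3.59 ± 3.15 (SD, n = 4), a difference of 3.07 ± 1.17 (SE, adjusted p = 0.152), and its lowest Quchi array, at -7.98, lay within the IRI range. Apoa2 at 0.73 ± 0.21 and Serpina1 at 0.73 ± 0.29 did not pass (adjusted p = 0.0539 and 0.18). The acupoint comparisons share the 4 IRI arrays, so their values stand side by side and are not independent.

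**Figure D4:**
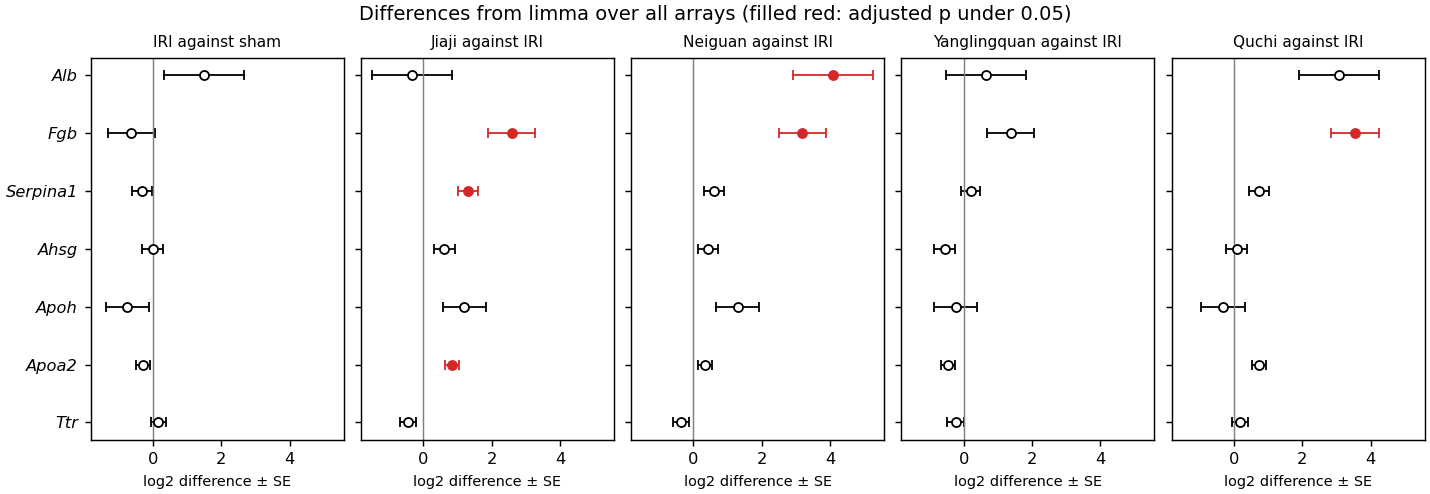
Log2 differences with their SE from limma for the 7 tested genes, in 5 comparisons of groups with 4 arrays each; filled red points have an adjusted p under 0.05. Serpina1, Apoa2 and Fgb are called in Jiaji, Alb and Fgb in Neiguan and Fgb in Quchi, and none in IRI against sham or in Yanglingquan; the Fgb points involve arrays below background in IRI and carry no exact size.

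Across all 6 groups 5 of 7 differed by limma's moderated F test (Alb, Fgb, Serpina1, Ahsg and Apoa2), with 45.8% of all genes called. Among the 4 acupoint groups 4 of 7 differed (Alb, Serpina1, Ahsg and Apoa2), with 39.1% of all genes called. Apoa2 had the largest F in both, at 10.9 and 16.5 (adjusted p = 0.000434 and 0.000352). Apoa2 and Ahsg had their lowest group means in Yanglingquan, where 1 and 2 of 4 arrays were well above background. For Alb the adjusted p was 0.00427 and 0.0157. Over the 6 groups Ahsg lost its call under all 4 other scalings (adjusted p = 0.107 to 0.669) and without any of 10 single arrays (0.0511 to 0.105; sham replicate 3, each Jiaji array, Neiguan replicates 1 and 4, Yanglingquan replicates 2 and 4 and Quchi replicate 2). Alb and Fgb lost theirs under normexp (0.0517 and 0.151). Ahsg and Serpina1 lost their calls among the acupoint groups under all 4 other scalings, as under quantile normalization (adjusted p = 0.286 and 0.182). Leaving out 1 array also ended these calls, for Ahsg with Yanglingquan replicate 2 or 4 and for Serpina1 with Jiaji replicate 1, 3 or 4 or Yanglingquan replicate 2 or 3 (adjusted p = 0.0646 to 0.0848 over these arrays).

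Males and females were compared over all groups, since the highest albumin arrays came from males. Albumin was lower in females by -1.48 ± 0.68 (SE; -6.40 ± 1.71 against -4.92 ± 3.23, SD, n = 12) and Fgb by -0.86 ± 0.40, and neither passed (limma adjusted p = 0.37 and 0.373). In all, 0 of 7 were called, 2 had an unadjusted p under 0.05, and 0.209% of all genes were called. Alb was measured in both sexes of Neiguan and Quchi, where males had the higher mean. In Quchi the males stood at -0.86 and -1.85 for Alb and the females at -3.66 and -7.98. In Neiguan the males were at 1.47 and -3.07 and the females at -4.69 and -4.02; in Jiaji no array was well above background. No difference between the sexes in the effect of injury was called for any of the 7. For this interaction of injury and sex 0 had an unadjusted p under 0.05 (limma adjusted p = 1 for Alb), with 0.00% of all genes called. With 2 arrays in each cell, a like effect in both sexes cannot be read from it.

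Other plasma proteins of the liver were set beside these 10. Of 54 such genes 51 had a named probe, and 35 were tested. On Neiguan replicate 1, 16 of the 51 (31.4%) had their highest level of all arrays, well above background. The next array was Quchi replicate 2 with 4 of 51, where 6.90% of all genes were highest. The genes named next were chosen after their values were seen. Mug1, a protease inhibitor of the alpha-macroglobulin family, stood at -2.20 on Neiguan replicate 1, -3.62 on Quchi replicate 1 and -5.14 on Quchi replicate 2, the only arrays on which it was well above background, and r with Alb was 0.82. Prothrombin, F2, followed the same order at -2.47, -5.13 and -5.49, as did Ambp, the precursor of alpha-1-microglobulin, at -2.31, -3.80 and -4.48. Retinol-binding protein, Rbp4, gave -2.08, -3.98 and -4.50 there, against a median of -5.56. A level over 1 log2 unit above the gene's own median and well above background on Neiguan replicate 1 was seen in 19 of the 51, and in 2.60% of all named genes.

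In group comparisons 5 of these 35 plasma protein genes were called higher with injury alone, and 8 in Jiaji, 6 in Neiguan and 2 in Quchi than in IRI. Of all 12894 genes, 609 were called higher with injury, and the shares called higher were 8.39%, 4.41% and 2.39% in these acupoint groups. In Yanglingquan 1 was called higher and 4 lower, with 12.1% of all genes called, and in Quchi 1 lower. Median differences were between -0.06 and 0.32, beside -0.05 to 0.02 over all genes. Plasminogen, Plg, rose by 0.88 ± 0.14 in Neiguan (limma adjusted p = 0.000512) and by 0.64 ± 0.14 in Jiaji (0.00564). Apoa4, an apolipoprotein of intestine and liver, rose by 1.99 ± 0.31 in Jiaji, 1.56 ± 0.31 in Neiguan and 1.36 ± 0.31 in Quchi (adjusted p = 0.000207, 0.00332 and 0.0182). Apoa5, which promotes the clearance of triglycerides, rose by 1.60 ± 0.30 in Neiguan and 1.13 ± 0.30 in Jiaji (adjusted p = 0.00219 and 0.0206). Hemopexin, Hpx, a haem carrier, rose by 1.50 ± 0.22 with injury and by a further 1.06 ± 0.22 in Neiguan (adjusted p = 0.000309 and 0.00413). Hamp, which encodes the iron hormone hepcidin, rose in Jiaji and Yanglingquan, by 1.14 ± 0.25 and 1.08 ± 0.25 (adjusted p = 0.00415 and 0.00659). Saa4, a constitutive serum amyloid, rose by 0.61 ± 0.11 with injury and fell by 0.46 ± 0.11 in Yanglingquan (adjusted p = 0.00164 and 0.00827).

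Genes of hepatocyte enzymes, transporters and regulators were taken as a further list. Of 39 with a probe, 4 (10.3%) were highest on Neiguan replicate 1 and well above background there. Among them were the fatty acid binding protein gene Fabp1, the bile acid ligase gene Slc27a5 and Cyp2c11. Cyp2c11 was well above background on all 24 arrays, those of females included. Fabp1 stood at -1.89 on Neiguan replicate 1, -3.41 on Quchi replicate 1 and -4.24 on Quchi replicate 2, against a median of -5.94. Sham replicate 2 also had 4 of the 39, with 9.94% of all genes. Cyp2c12, Cyp3a2, Cyp7a1, Hal and Aadac were well above background on 0 of 24 arrays, and the urea cycle genes Cps1 and Otc and the tyrosine aminotransferase gene Tat were not well above background on Neiguan replicate 1. The bile acid transporter gene Slc10a1 and the regulator gene Hnf4a stood near their medians there, at -1.29 and -4.17, but were highest on Quchi replicates 1 and 2, at 0.23 and -0.13 for Slc10a1 and -3.20 and -3.41 for Hnf4a. Over the 25 tested genes the summed linear signal, in units of the array's 75th percentile, was 2.30 to 2.99 in sham, 2.32 to 3.56 in IRI, 2.90 to 3.49 in Jiaji, 2.49 to 3.37 in Neiguan, 2.57 to 5.83 in Yanglingquan and 3.25 to 3.89 in Quchi. The part of liver RNA in the albumin and fibrinogen levels was not tested.

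Of these hepatocyte genes 1 of 25 was called between IRI and sham, 4 in Jiaji, 1 in Neiguan, 5 in Yanglingquan and 1 in Quchi against IRI. Of all 12894 genes, 742, 1314, 726, 1563 and 444 were called in the same comparisons, in either direction. Whether the list differed from all genes in these counts was not tested. Cyp2c11 was called in each acupoint group, at 1.36 ± 0.19 in Jiaji, 1.28 ± 0.19 in Neiguan, 0.87 ± 0.19 in Yanglingquan and 0.82 ± 0.19 in Quchi (limma adjusted p = 8.2e-05, 0.00028, 0.00608 and 0.0219). The conjugating enzyme gene Baat rose by 1.03 ± 0.21 in Jiaji (adjusted p = 0.00299). The tryptophan dioxygenase gene Tdo2 rose by 0.56 ± 0.14 in Jiaji and fell by 0.68 ± 0.14 in Yanglingquan (adjusted p = 0.0121 and 0.00327). Lists of other tissues and cells, covering lung, pancreas, kidney, intestine, fat, lymphocytes, skeletal muscle, mesothelium, red cells, neutrophils and cardiomyocytes, had 2 of 89 genes highest on Neiguan replicate 1 and well above background there, Cidec and Krt19. Among 5 liver macrophage markers, Vsig4 was well above background on that array alone, at -4.34, while the other 4 were highest on other arrays. Of the 3 tested, Clec4f, a lectin gene of liver macrophages, was called higher in Jiaji, Neiguan and Quchi than in IRI. Its differences were 2.03, 1.58 and 1.23 ± 0.30 (limma adjusted p = 0.000104, 0.00193 and 0.0243). The other tested markers, Cd5l and Cd163, were not called there, and the median differences of the 3 were 0.12, -0.16 and 0.59. In Yanglingquan Cd5l was called lower than in IRI.

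**Figure D5:**
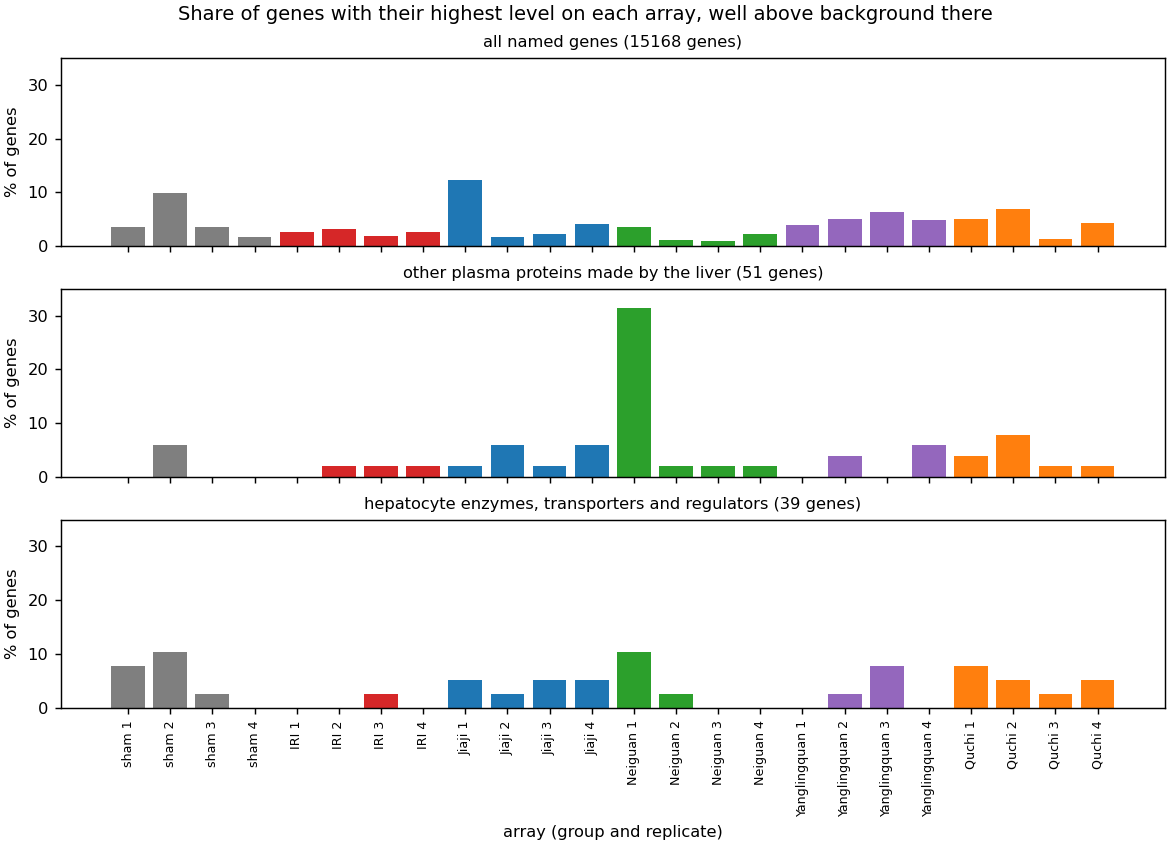
Percent of genes whose highest level over the arrays fell on each array and was well above background there, for all 15168 named genes, 51 other plasma protein genes and 39 hepatocyte genes; bars are arrays, coloured by group. Neiguan replicate 1 holds 31.4% of the plasma protein genes, 10.3% of the hepatocyte genes and 3.52% of all genes.

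The genes whose pattern was most like that of Alb were sought among all tested genes other than the 10, after the levels of Alb had been seen. Among the closest were Fabp1 (r = 0.78 over 24 arrays, 0.49 without Neiguan replicate 1 and Quchi replicate 1), the highest, the odorant binding protein gene Obp3 (0.71), the repressor gene Bcl6 (0.69), Calcb (0.69, over 23 arrays), Wdr62 (0.68), the major urinary protein gene Mup4l4 (0.67), Dop1b (0.66), antithrombin, Serpinc1 (0.66), and Gpr108 (0.65). Obp3 and Mup4l4 stood at -1.18 and 0.10 on Neiguan replicate 1, against medians of -4.18 and -2.74. With group means subtracted Fabp1 stayed closest, at 0.75. For the mean of Serpina1 and Ttr, which on Yanglingquan replicate 1 holds Serpina1 alone, the closest was the secretory chaperone gene Scg5 (0.86). Slc43a2 (0.83) and Efcab10 (0.83) came next, followed by Vom1r69, Or52ae8, C2cd4c, Crybb3, Dusp9, Cpeb1 and Vom1r73 (0.79 to 0.82). None of these 10 was highest on Neiguan replicate 1. That array ranked 7th for Serpina1 and 22nd of 23 for Ttr, which left little room for another outcome. Serpina1 and Ttr gave r = -0.39 with each other, the lowest of the 45 pairs, so their mean is the pattern of neither gene.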

How the data were processed

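Single-colour arrays of 24 rat myocardium samples were analysed, with groups, sexes and replicate numbers taken from the labels. Per the file headers, spot intensities were extracted with Feature Extraction 11.0.1.1, which subtracted local background and detrended each array; the submitters' processing notes name 10.7.3.1. The spot flags (control, outlier, saturated, well above background) were set by the same software, per the file headers. The authors' deposited log2 values of the same arrays, whose columns share a median and quartiles and made with a tool that the sources used here do not name, served as an alternative.

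Control spots and spots marked as outliers were left out, spots of a probe were averaged, and log2 of the processed signal was taken minus the 75th percentile of the array. Probes were named through RefSeq accessions: 18005 of 30367 probes (59.3%) matched 1 gene each, 15168 genes in all. A gene was represented by its brightest probe passing the filter, and 12894 genes were tested. limma 3.58.1 in R 4.3.3 fitted group and sex over all 24 arrays (17 residual degrees of freedom), two-sided, with Benjamini-Hochberg adjustment over all genes tested; the script was tested on simulated data. Python 3.11.15 with pandas 2.3.3 computed the rest. The number of arrays limits the precision.

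The 10 genes and the other lists were chosen with earlier results of these data known. Genes named from the other lists were those called, at most 6 a list by signal, besides those said to be chosen after their values were seen; some genes of these lists are not reported here. Alternatives changed the scaling, background correction, filter, probe rule, sex term, replicate block and scan, and left out each array in turn.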

Additional observations from a re-analysis of the deposited data

Results flagged for a closer look

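In Jiaji, Apoa1 on replicate 4 stood apart from the other arrays of its group: its gap to the nearest of them made up 0.972 of the whole range of the group, above Dixon's critical value for 4 arrays. Its level was -5.95 against -8.49 to -8.42 on the others, and 0 of the 4 arrays were well above background. It was the only such case among 59 sets of 4 arrays examined (10 genes in 6 groups, less 1 set with a missing value), and chance alone gives about 1 in 20.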

How the results depend on the processing

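Counts of the 10 genes called were 0 in IRI against sham, 3 in Jiaji, 2 in Neiguan, 0 in Yanglingquan and 1 in Quchi against IRI, 5 over the 6 groups and 4 over the acupoint groups. With normexp background correction the counts were 1 in Jiaji, 0 in Neiguan, 0 in Quchi, 2 over the 6 groups and 1 over the acupoint groups; for Fgb the differences were then 0.25, 0.73 and 0.68 in Jiaji, Neiguan and Quchi. The filter that asks for all 24 arrays left Serpina1 and Ttr, and gave 1, 0, 0, 1 and 1 in the same order. Without a filter Neiguan had 1 call and the interaction of injury and sex 1 (Fga, which no array measured well above background). Without the sex term Neiguan had 1 and Quchi 2. Quchi had 2 calls, and the acupoint groups 2, under quantile normalization, median scaling and the authors' values. With scan as a random block (consensus correlation -0.0998) Yanglingquan had 1, Quchi 2 and the acupoint groups 7. Since no scan held arrays of more than 1 group, this block cannot take scan effects out of the group differences. A negative correlation narrows the errors of group means, so higher counts under it lend the calls no support. Leaving out 1 array gave 2 to 3 in Jiaji, 1 to 2 in Neiguan, 0 to 1 in Yanglingquan, 1 to 3 in Quchi, 4 to 6 over the 6 groups, 2 to 5 over the acupoint groups and 0 in IRI against sham. Serpina1 in Jiaji kept its call in every alternative, at 0.45 to 1.47. The median correlation between pairs was 0.026 under quantile normalization, -0.012 with the authors' values, -0.392 under the stricter filter (Serpina1 and Ttr only) and 0.073 to 0.168 with 1 array left out. Single arrays stood apart in 6 sets under quantile normalization, 2 under median scaling, 6 under normexp and 7 with the authors' values. Replicate numbers did not pair the samples: deviations of 60 same-numbered pairs correlated at -0.39 to 0.37. With the replicate block the counts were 0, 3, 2, 0 and 1 in the 5 comparisons, 6 over the 6 groups and 5 over the acupoint groups, and Alb in Neiguan had an adjusted p of 0.0322. No separate value exists for the correlation without a filter or over several probes, since each gene has 1 probe and all were used, nor for the interaction without sex. Counts over all genes moved by over 1.5 times, with all arrays kept, in these cases: with scan as a random block to 1636, 2526, 1804, 3043 and 1324 in the 5 comparisons (from 742, 1314, 726, 1563 and 444), 8906 over the 6 groups and 7564 over the acupoint groups (from 5907 and 5036); in Jiaji to 2369 under median scaling; with normexp to 491 in IRI against sham, 664 in Yanglingquan and 43 between the sexes (from 27); in Yanglingquan to 852 under quantile normalization, 858 with the authors' values and 914 under the stricter filter; between the sexes to 48 under that filter and 3 with the replicate block; and for the interaction to 29 without a filter (from 0). With 1 array left out, the counts that moved so far were 440 in IRI against sham, 858 in Jiaji, 456 to 476 in Neiguan, 122 (without Quchi replicate 2) to 695 (without Quchi replicate 1) in Quchi, 43 to 73 between the sexes and 1 to 70 for the interaction. Signals below background limit Alb, Fga, Fgb, Fgg, Apoh and Apoa1, and, above all in Yanglingquan, Ahsg and Apoa2.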
